A study of Mus musculus with 5 samples.

Results

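The heat-shock genes and chaperones described here are 10 genes picked by name: Hspa1a, Hspa1b, Dnajb1, Hsph1, Hspb1, Hsp90aa1, Hspa8, Hsp90ab1, Dnaja1 and Hspe1. They are 10 of the 25873 named genes in the expression table, and all 10 passed the filter, a mean over the libraries of 1 RPKM or more, that left 11543 genes (RPKM, reads divided by the gene's length in kilobases and by the library's total). By their usual description, 6 are stress-inducible (Hspa1a, Hspa1b, Dnajb1, Hsph1, Hspb1 and Hsp90aa1) and 4 are made constitutively (Hspa8, Hsp90ab1, Dnaja1 and Hspe1). The high level of Hspa1a and Hspa1b in a Notch2 cKO library was known when these genes were picked, so their own levels and fold changes are given as a description.

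Molecular chaperones hold or fold other proteins and keep them from clumping. HSP70 proteins bind unfolded stretches in a cycle driven by ATP, J-domain proteins such as those of Dnajb1 and Dnaja1 deliver the client and start ATP hydrolysis, and Hsph1 exchanges the nucleotide that lets the client go. HSP90 proteins act later, on kinases and hormone receptors among others, small heat-shock proteins such as Hspb1 hold clients without ATP, and the protein of Hspe1 is the lid of the mitochondrial chaperonin. When proteins unfold, heat-shock factor 1 is freed from chaperones and binds heat-shock elements, runs of inverted GAA and TTC units, ahead of the inducible genes. The inducible and constitutive classes are graded rather than sharp, since Hspe1 and Dnaja1 also respond to heat.

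RNA was measured in tdTomato+, lineage-negative cells sorted by flow cytometry from limb muscle of C57BL/6J fetuses at E16.5. The WT control fetuses carried Pax7-CreER and Rosa-tdTomato (n = 2 libraries), the Notch1 cKO fetus carried these and Notch1f/f (n = 1), and the Notch2 cKO fetuses carried these and Notch2f/f (n = 2). All groups, controls included, came from mothers given tamoxifen by mouth at 240 mg/kg for 2 days from E12.5. Every fetus compared thus carried the Cre and had been exposed to tamoxifen. Pax7-CreER recombines in cells of the Pax7 lineage, so by design the sorted cells are Pax7-expressing progenitors at the time of tamoxifen and their descendants. RNA of marker genes of other cell types was also measured, as given below. Limb muscle was digested with collagenase and dispase before the sort in all groups, and the labels do not say whether 2 libraries of a group came from separate fetuses or litters.

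Libraries are called by their group and by the tag in their column name (Em2, Em3, Em4, Em8), whose meaning is not given. Reads implied by the RPKM steps numbered between 20740000 (Notch2 cKO Em3) and 28830000 (Notch2 cKO Em4) a library. All 8 myogenic markers examined passed the 1 RPKM mean, and Myog, a driver of myoblast differentiation, was the most abundant of them. Notch1 stood at 7.26 and 13.5 RPKM in WT Em2 and WT Em4 and at 2.33 RPKM in Notch1 cKO Em8. Notch2 stood at 2.40 and 4.17 RPKM in the WT libraries, 3.35 RPKM in Notch2 cKO Em3 and 2.03 RPKM in Notch2 cKO Em4, so Notch2 cKO Em3 lay between the controls. These whole-gene values include exons that a deletion would leave, and the labels do not name the floxed exons, so they check the labels only in part. The median gene differed by 0.14 log2 units (Notch2 cKO minus WT) as deposited and by -0.045 after median-of-ratios scaling.

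The sequences ahead of the genes are shown because the heat-shock element is the feature by which the inducible genes are usually recognised. RefSeq promoter entries (build GRCm38.p6) matched 7 of the 10 genes: Hspa1a, Hspa1b, Dnajb1, Hsph1, Hspb1, Dnaja1 and Hspe1. The 250 bases ahead of the first start site are printed 5′ to 3′ on the gene's strand, for Hspa1a (chr17:34972157-34972406, minus strand), Hspa1b (chr17:34959239-34959488, minus), Hspb1 (chr5:135887669-135887918, plus), Hsph1 (chr5:149636337-149636586, minus), Hspe1 (chr1:55087898-55088147, plus) and Dnajb1 (chr8:83607925-83608174, plus). Capitals mark an inverted pair of heat-shock units, GAANNTTC or TTCNNGAA, each of which reads the same on both strands.
Hspa1a: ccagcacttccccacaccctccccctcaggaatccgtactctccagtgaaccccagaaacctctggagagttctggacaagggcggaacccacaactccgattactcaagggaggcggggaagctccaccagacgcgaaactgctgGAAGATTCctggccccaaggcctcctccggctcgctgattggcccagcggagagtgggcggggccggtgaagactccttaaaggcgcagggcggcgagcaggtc
Hspa1b: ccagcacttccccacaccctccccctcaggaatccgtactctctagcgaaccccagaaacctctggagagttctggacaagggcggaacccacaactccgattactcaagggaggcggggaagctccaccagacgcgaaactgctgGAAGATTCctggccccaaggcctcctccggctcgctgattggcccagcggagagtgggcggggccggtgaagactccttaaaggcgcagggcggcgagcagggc
Hspb1: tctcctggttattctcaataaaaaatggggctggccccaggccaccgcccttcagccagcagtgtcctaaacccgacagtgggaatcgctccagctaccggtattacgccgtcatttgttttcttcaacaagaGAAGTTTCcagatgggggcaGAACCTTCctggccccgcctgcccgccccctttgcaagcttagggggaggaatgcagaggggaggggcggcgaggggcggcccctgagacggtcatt
Hsph1: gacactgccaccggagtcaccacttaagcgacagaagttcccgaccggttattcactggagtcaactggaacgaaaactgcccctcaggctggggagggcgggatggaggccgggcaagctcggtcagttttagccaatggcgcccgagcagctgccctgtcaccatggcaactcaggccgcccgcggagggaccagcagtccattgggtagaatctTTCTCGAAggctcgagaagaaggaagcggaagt
Hspe1: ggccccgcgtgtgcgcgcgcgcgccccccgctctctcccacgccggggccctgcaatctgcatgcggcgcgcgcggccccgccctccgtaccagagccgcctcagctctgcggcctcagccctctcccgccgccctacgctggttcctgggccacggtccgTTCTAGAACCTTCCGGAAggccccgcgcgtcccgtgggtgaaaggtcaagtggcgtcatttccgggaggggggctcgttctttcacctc
Dnajb1: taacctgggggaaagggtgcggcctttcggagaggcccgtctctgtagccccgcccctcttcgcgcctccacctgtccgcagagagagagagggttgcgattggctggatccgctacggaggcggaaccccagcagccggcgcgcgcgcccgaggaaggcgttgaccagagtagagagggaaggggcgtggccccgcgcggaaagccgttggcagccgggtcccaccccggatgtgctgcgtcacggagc

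The Hspa1a and Hspa1b windows are identical at 247 of 250 bases, and each holds 1 inverted pair, starting 104 bases ahead of the start site. Hspb1 holds 2 pairs (starting 117 and 97 bases ahead), Hsph1 holds 1 close to the start (33 bases ahead), and Dnaja1, not printed, holds 1 (124 bases ahead). Hspe1, classed as constitutive, has 3 overlapping pairs that form 2 overlapping triples, in which a further unit continues the pair at the same spacing. Neither the window printed for Dnajb1 nor that of its other start site holds a pair, although Dnajb1 is among the inducible genes. In all, 6 of the 7 matched genes have a pair in at least 1 window. Of 32851 windows of 250 bases over all promoter entries, 12.8% have such a pair and 0.47% a triple. These shares are per window, while the count above is per gene over 1 or more windows, so the measures are unlike. A match is a description of letters and says nothing of binding.

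The inducible HSP70 genes Hspa1a and Hspa1b separated the libraries most. Hspa1a stood at 2.11 RPKM in WT Em2, 3.82 in WT Em4, 7.92 in Notch1 cKO Em8, 120.2 in Notch2 cKO Em3 and 4.08 in Notch2 cKO Em4. Hspa1b stood at 3.16, 4.73, 9.24, 165 and 6.54 RPKM in the same order. Both genes were high in Notch2 cKO Em3 alone, low in its partner Notch2 cKO Em4, and lowest in WT Em2. The reads behind the Hspa1a values were 144, 244, 566, 6975 and 329, and those behind Hspa1b 217, 304, 663, 9640 and 530. Notch2 cKO Em3 exceeded the next highest library, Notch1 cKO Em8, 15.2-fold for Hspa1a and 17.9-fold for Hspa1b, while the other 4 libraries spanned 3.76-fold and 2.92-fold. By level, Hspa1a ranked between 6235 and 9385 among the 11543 tested genes in those 4 libraries and 991 in Notch2 cKO Em3. Hspa1b ranked between 5778 and 8353 in the 4 and 719 in Notch2 cKO Em3.

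Group means hide this split: for Hspa1a they were 2.96 ± 1.21 RPKM in WT and 62.1 ± 82.1 in Notch2 cKO (SD, n = 2 each), and for Hspa1b 3.95 ± 1.11 and 86.0 ± 112 RPKM. In Notch2 cKO the SD is larger than the mean for both genes. The library with the high values is 1 of 2, and no further Notch2 cKO library was analysed here.

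Hspa1a and Hspa1b are neighbours on chromosome 17 (GENCODE M21, GRCm38), on the minus strand, at chr17:34969190-34972156 (Hspa1a) and chr17:34956436-34959238 (Hspa1b), 9951 bases apart, and each has 1 exon. Their longest open reading frames match at 1918 of 1926 aligned bases (99.6%), and 68.1% of the 100-base windows of Hspa1a occur unchanged in Hspa1b. How the authors' counting shared such reads is not given, so the 2 values are uncertain individually, and the sum is the firmer measure. Summed, the pair stood at 5.27, 8.55, 17.15, 286 and 10.6 RPKM in WT Em2, WT Em4, Notch1 cKO Em8, Notch2 cKO Em3 and Notch2 cKO Em4. The ratio of Hspa1b to Hspa1a stayed between 1.17 and 1.60, so both rows shared the pattern. Hspa1a also overlaps the gene model Gm20481 on the opposite strand, and the kit used does not mark strand.

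Hspa8, the constitutive HSP70 of unstressed cells, had another order of libraries. It stood at 270.3, 272, 227, 349 and 414 RPKM in the same library order. It was highest in Notch2 cKO Em4 and lowest in Notch1 cKO Em8, and both Notch2 cKO libraries lay above both WT libraries. The level of the inducible pair was 1.95%, 3.14%, 7.55%, 81.75% and 2.565% of that of Hspa8, per length, so the pair came near the level of Hspa8 only in Notch2 cKO Em3. The coding sequences of Hspa1a and Hspa8 match at 74.5% of aligned bases, with no 100-base window in common. Hspa8 lies at chr9:40800984-40810087 on the plus strand, with 3 snoRNA genes (Snord14c, Snord14d and Snord14e) inside it.

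**Figure D1:**
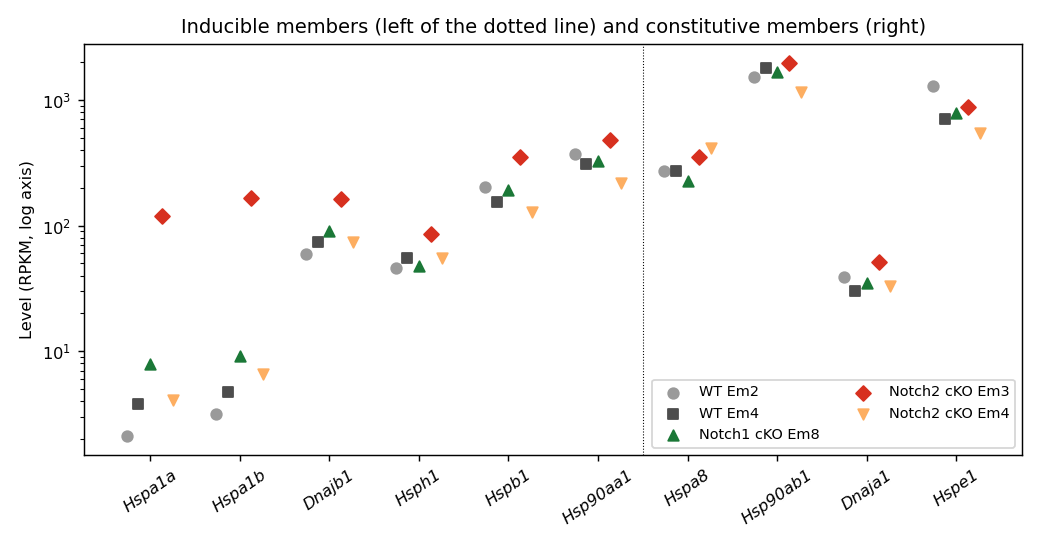
Level of each of the 10 genes (y axis, RPKM, log axis) in the 5 libraries, with 1 point a library and inducible genes left of the dotted line. Notch2 cKO Em3 stands far above the other libraries for Hspa1a (120.2 RPKM) and Hspa1b (165 RPKM), is highest for 6 further genes, and is not highest for Hspa8 and Hspe1.

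The 3 co-chaperones of HSP70 among the 10 genes, Dnajb1, Hsph1 and Dnaja1, were highest in Notch2 cKO Em3, by smaller margins. Dnajb1, the main inducible J-domain partner of HSP70, stood at 59.0, 74.6, 91.0, 163 and 73.6 RPKM in WT Em2, WT Em4, Notch1 cKO Em8, Notch2 cKO Em3 and Notch2 cKO Em4. Hsph1, the HSP110 exchange factor, stood at 46.2, 55.05, 47.6, 86.1 and 55.3 RPKM. Both were highest in Notch2 cKO Em3, 1.80-fold and 1.56-fold above the next library, and lowest in WT Em2. Notch2 cKO Em4 lay between the WT libraries for Dnajb1 and just above both for Hsph1. Dnaja1, a constitutive J-domain protein, stood at 39.2, 29.9, 34.9, 50.9 and 33.1 RPKM, 1.30-fold higher in Notch2 cKO Em3 than in the next library (WT Em2). Dnaja1 (chr4:40722150-40737149, plus strand) overlaps Smu1, Mir207 and Gm6297 and has 1 named pseudogene, so some of its reads may be shared. Dnajb1 (chr8:83608193-83612653, plus) and Hsph1 (chr5:149614287-149636376, minus) overlap no other annotated gene.

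Hspb1, the small heat-shock protein that is abundant in muscle, stood at 204, 155, 191.5, 352 and 129 RPKM in the same order. Notch2 cKO Em3 was highest, 1.73-fold above WT Em2, while Notch2 cKO Em4 was the lowest of the 5, so the Notch2 cKO libraries flank all others. Hspb1 lies at chr5:135887919-135889563 on the plus strand.

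The cytosolic HSP90 genes were among the most abundant of the 10. Hsp90ab1, the constitutive form, was the most abundant of the 10 in every library, at 1531, 1784, 1675, 1982 and 1150.0 RPKM. Hsp90aa1, the inducible form, stood at 373.5, 311, 327, 481 and 219 RPKM. Both were highest in Notch2 cKO Em3 and lowest in Notch2 cKO Em4, and Notch2 cKO Em3 exceeded the next library 1.11-fold and 1.29-fold, less than the 1.55-fold and 1.705-fold range of the other 4. The ratio of Hsp90aa1 to Hsp90ab1 was 0.244 in WT Em2, 0.174 in WT Em4, 0.195 in Notch1 cKO Em8, 0.243 in Notch2 cKO Em3 and 0.191 in Notch2 cKO Em4. The ratio in Notch2 cKO Em3 therefore matched that in WT Em2. Their coding sequences match at 76.3% of aligned bases with no shared 100-base window. Hsp90aa1 lies at chr12:110690605-110702728 and Hsp90ab1 at chr17:45567775-45573271, both on the minus strand.

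Hspe1, the mitochondrial co-chaperonin, stood at 1292, 702, 785.5, 872 and 547 RPKM. It was highest in WT Em2 and spanned 2.36-fold among the 4 libraries other than Notch2 cKO Em3. Hspd1, the chaperonin that Hspe1 caps and its head-to-head neighbour, stood at 367, 371, 315, 436.5 and 379 RPKM, so the Hspe1 to Hspd1 ratio ran from 1.44 in Notch2 cKO Em4 to 3.52 in WT Em2. The Hspe1 transcript is the shortest of the 10 (384 bases, against a median of 2744 for tested genes), and 6 named pseudogenes exist. With a trend on transcript length removed, the Notch2 cKO to WT log2 fold change of Hspe1 went from -0.46 to -0.01. Hspe1 lies at chr1:55088132-55091307 on the plus strand and overlaps Hspd1.

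Counted over the 10 genes, Notch2 cKO Em3 was the highest library for 8, where 25.4% of all tested genes were highest in it. With the libraries rescaled by median-of-ratios factors, it was highest for 5 of the 10 (Hspa1a, Hspa1b, Dnajb1, Hsph1 and Hspb1) and for 12.6% of all genes. The same 5 genes were over 1.5-fold above every other library on the RPKM + 1 scale, as were 129 genes or 1.12% of those tested. The choice of genes used these values, so nothing is read from the counts. Hspa1b and Hspa1a had the widest and second widest lead of Notch2 cKO Em3 over the next library among the 11154 genes averaging 50 reads or more, at 4.02 and 3.765 log2 units. Dnajb1 ranked 22 with a lead of 0.84, Hspb1 33 with 0.785, Hsph1 84 with 0.63, Dnaja1 368 with 0.37, Hsp90aa1 389 with 0.36 and Hsp90ab1 1347 with 0.15. Hspa8 and Hspe1 had negative leads, -0.245 and -0.57, against a median of -0.20 over all tested genes.

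**Figure D2:**
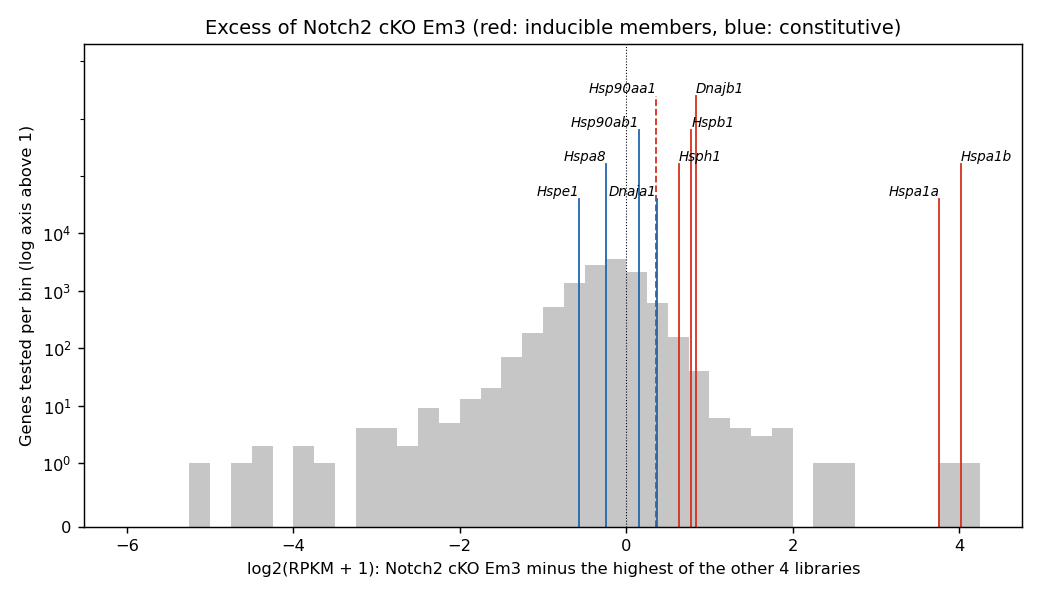
Lead of Notch2 cKO Em3 over the highest of the other 4 libraries (x axis, log2(RPKM + 1)) for the genes tested (grey, y axis in genes per bin on a log axis above 1), with lines for inducible (red; dashed for Hsp90aa1, whose lead of 0.36 nearly equals that of Dnaja1, 0.37) and constitutive genes (blue). Hspa1a and Hspa1b sit at the far right, at 3.765 and 4.02, and the other 4 inducible genes lie between 0.36 and 0.84.

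The classes were compared within each library as the mean log2(RPKM + 1) of the 6 inducible genes minus that of the 4 constitutive genes. This difference was -3.35 in WT Em2, -2.925 in WT Em4, -2.57 in Notch1 cKO Em8, -1.14 in Notch2 cKO Em3 and -2.91 in Notch2 cKO Em4. The inducible genes were thus the less abundant class in all 5 libraries, with the smallest gap in Notch2 cKO Em3, and Notch2 cKO Em4 lay just above WT Em4, by less than the gap between the WT libraries. The gap in Notch2 cKO Em3 was narrower by 1.43 than in the next library, and the range of the other 4 was 0.78. Without Hspa1a and Hspa1b the difference was -1.66, -1.42, -1.31, -0.92 and -1.55 in the same order, so Notch2 cKO Em3 still led, by 0.39 against a range of 0.345 among the others. Summed RPKM of the inducible genes was 688, 604, 674, 1368 and 488, and of the constitutive genes 3133, 2788, 2723, 3254 and 2144. Together the 10 genes made up 0.513%, 0.549%, 0.499%, 0.7675% and 0.441% of the RPKM of tested genes.

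**Figure D3:**
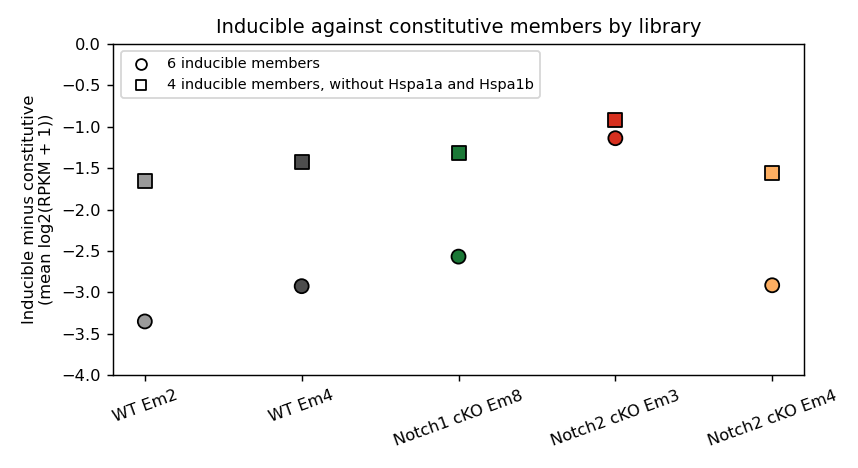
Mean log2(RPKM + 1) of inducible genes minus that of constitutive genes (y axis) in each library (x axis), with circles for all 6 inducible genes and squares for the 4 without Hspa1a and Hspa1b. Notch2 cKO Em3 is highest by either measure (-1.14 and -0.92), and its circle is 1.43 above the next.

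Notch2 cKO was compared with WT to ask how loss of Notch2 in the lineage bears on these genes, by limma on log2(RPKM + 1) with Benjamini-Hochberg adjustment over all tested genes. Hspa1a and Hspa1b were the 2 of the 10 genes called higher, and none was called lower, where 0.537% of all tested genes were called (41 higher and 21 lower). Their log2 fold changes were 2.68 (SE 0.44) and 2.86 (SE 0.43). These SEs rest mostly on a spread pooled over all tested genes (103.8 prior against 2 residual degrees of freedom). They therefore do not show how far the Notch2 cKO libraries lay apart for Hspa1a and Hspa1b. The adjusted p of the other 8 ran from 0.423 to 0.968 by limma. Among those, Dnajb1 had 0.72 (SE 0.27), Hspa8 0.49 (SE 0.28), Hsph1 0.45 (SE 0.27), Hspb1 0.26 (SE 0.29) and Dnaja1 0.26 (SE 0.27). Hsp90aa1 had -0.07 (SE 0.29), Hsp90ab1 -0.13 (SE 0.355) and Hspe1 -0.46 (SE 0.32). The 10 had a median of 0.35, against 0.14 over all tested genes, and 7 lay above 0. For Hspa1a, Hspa1b, Hsph1 and Hspa8 both Notch2 cKO libraries lay above both WT libraries, as did 28.3% of all tested genes, and for none of the 10 did both lie lower (9.44%).

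The comparison rests on Notch2 cKO Em3. Without it, the log2 fold changes of Hspa1a and Hspa1b were 0.39 and 0.63, none of the 10 was called by limma (0 at an unadjusted p under 0.05), 5 lay above 0 and their median was 0.04, against 0.12 over all genes. Without Notch2 cKO Em4 they were 4.97 and 5.09, with Notch2 cKO Em3 as the lone library of its group. Without WT Em2 the limma calls were lost, although the values, 2.365 and 2.63, stayed close to those with all libraries. Without WT Em4 they were 2.997 and 3.09, and Hspe1 was called lower beside them. Both fits had 1 residual degree of freedom in place of 2, and why only the first lost the calls was not tested. Between the Notch2 cKO libraries, Em3 minus Em4 was 4.58 for Hspa1a, 4.46 for Hspa1b, 1.44 for Hspb1, 1.14 for Dnajb1, 1.13 for Hsp90aa1, 0.785 for Hsp90ab1, 0.67 for Hspe1, 0.63 for Hsph1, 0.60 for Dnaja1 and -0.245 for Hspa8. Hspa1a and Hspa1b thus differed more within the Notch2 cKO group than their fitted difference from WT.

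The Notch1 cKO library was compared with WT for the same question about Notch1, with a lone library assumed to vary like the others. No gene of the 10 was called by limma (adjusted p of 1 for all), where 0.0693% of all tested genes were called (0.0433% higher). By limma, 2 had an unadjusted p under 0.05 (Hspa1a 0.029 and Hspa1b 0.0456). Voom on recovered reads called 0 of the 10, and 5 of 11541 genes. Hspa1a had a log2 fold change of 1.205 (SE 0.54), Hspa1b 1.07 (SE 0.53) and Dnajb1 0.45 (SE 0.33). These 3 lay above both WT libraries in Notch1 cKO Em8, as did 24.3% of all tested genes, and Hspa8 lay below both (26.1%). The other 7 genes had log2 fold changes between -0.28 (Hspe1) and 0.11 (Hspb1). The median of the 10 was 0.02, against 0.01 over all genes.

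Between Notch2 cKO and Notch1 cKO, none of the 10 genes was called by limma, where 0.485% of all tested genes were, and 3 had an unadjusted p under 0.05. The log2 fold change of Hspa1b was 1.79 (SE 0.53, limma adjusted p 0.129) and that of Hspa1a 1.48 (SE 0.54, adjusted p 0.338). Voom on recovered reads called Hspa1b (adjusted p 0.0111), among 33 called genes of 11541. Hspa1b was picked for its level in Notch2 cKO Em3, so nothing is read from this call. Hspa8 had 0.74 (SE 0.34). Without Notch2 cKO Em3 the values of Hspa1b and Hspa1a turned to -0.44 and -0.81, and 2 of the 10 lay above 0. Without Notch2 cKO Em4 the differences of Hspa1a and Hspa1b were 3.765 and 4.02. That fit sets the library for which the genes were picked against 1 other, with a spread from the WT libraries alone, so no call is read from it. The 3 comparisons share libraries, so their values are given side by side and not as separate evidence.

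Column names also carry digits that resemble a date, whose meaning is not given. Notch2 cKO Em3 and Notch1 cKO Em8 share their digits, and between them all 10 genes were higher in Notch2 cKO Em3, from 0.15 (Hspe1) to 4.02 (Hspa1b) log2 units, with a median of 0.73 against 0.13 over all genes. Notch2 cKO Em4 and WT Em4 share another set, and between them 5 of the 10 were higher in Notch2 cKO Em4, from -0.63 (Hsp90ab1) to 0.60 (Hspa8), with a median of -0.01 against 0.03. For Hspa1a and Hspa1b the first of these differences was 3.765 and 4.02 and the second 0.08 and 0.40. For Hspa1a, Hspa1b and Dnajb1, the highest and next highest libraries were Notch2 cKO Em3 and Notch1 cKO Em8. This did not hold for the rest of the 10 genes. Each pair that shares digits also differs in genotype, and none holds Notch2 cKO Em3 beside a WT library. The part of the digits in these values was not tested. Between WT Em2 and WT Em4 the 10 genes ranged from -0.63 (Hspa1a) to 0.88 (Hspe1).

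The wider chaperone network was read from 10 lists of 103 genes, of which 97 were tested. None was called by limma in any of the 3 comparisons, and 10, 0 and 14 had an unadjusted p under 0.05 in Notch2 cKO against WT, Notch1 cKO against WT and Notch2 cKO against Notch1 cKO. The lowest adjusted p was that of Unc45b, a myosin chaperone of muscle, at 0.0975 for Notch2 cKO against WT and 0.0685 for Notch2 cKO against Notch1 cKO. Unc45b stood at 2.25, 3.56, 2.08, 5.62 and 9.97 RPKM in WT Em2, WT Em4, Notch1 cKO Em8, Notch2 cKO Em3 and Notch2 cKO Em4, highest in Notch2 cKO Em4. Of the 97 genes, 17 (17.5%) were highest in Notch2 cKO Em3, against 25.4% of all tested genes.

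By list, 6 of 14 other heat-shock factor targets were highest in Notch2 cKO Em3, as were 5 of 13 other J-domain genes, 5 of 19 co-chaperones, 2 of 7 other HSP70 and HSP110 genes, 2 of 13 mitochondrial chaperones and proteases, 1 of 5 small heat-shock protein genes and 1 of 3 myosin chaperones. None of 17 endoplasmic reticulum chaperones, 14 chaperonin and prefoldin genes or 3 heat-shock factor genes was. The lists overlap, and most of the heat-shock factor targets highest in Notch2 cKO Em3 are counted again in another list. Bag3, a co-chaperone of HSP70, stood at 14.0, 18.7, 23.45, 36.0 and 16.46 RPKM. The J-domain gene Dnajb4 stood at 26.8, 26.7, 30.4, 49.6 and 38.0 RPKM. Both were chosen for mention after their values were seen, and both were highest in Notch2 cKO Em3 without passing the test. Hsf1, the factor that drives heat-shock genes, stood at 18.9, 25.15, 22.2, 22.0 and 29.0 RPKM, with Notch2 cKO Em3 inside the range of the others, and its mRNA level does not report its activity. Hspa5, the HSP70 of the endoplasmic reticulum and the most abundant gene of its list, stood at 401, 421, 378, 396 and 588 RPKM and was highest in Notch2 cKO Em4. Cryab, the most abundant of the other small heat-shock genes, stood at 520.1, 437, 553, 443 and 468 RPKM and was highest in Notch1 cKO Em8.

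The most abundant genes of the other chaperone lists were lower in Notch2 cKO Em3 than in another library, apart from Hspd1. Hspa14, an HSP70 relative, stood at 62.7, 53.9, 47.9, 63.6 and 70.04 RPKM, and Dnajc8, a J-domain gene, at 226, 174, 179.9, 199.8 and 171 RPKM. Bag1, an exchange factor of HSP70, ran from 241 RPKM (Notch2 cKO Em3) to 296, and Hsbp1, a binding protein of heat-shock factor, from 260.4 RPKM (Notch2 cKO Em3) to 434. Neither was high where Hspa1a was. The polyubiquitin gene Ubb stood at 1057 RPKM in Notch2 cKO Em3 and at 775 to 1101 in the others, the chaperonin subunit Cct5 at 475 and 420.0 to 566, and the myosin chaperone Unc45a at 12.4 and 7.13 to 12.47 RPKM.

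**Figure D4:**
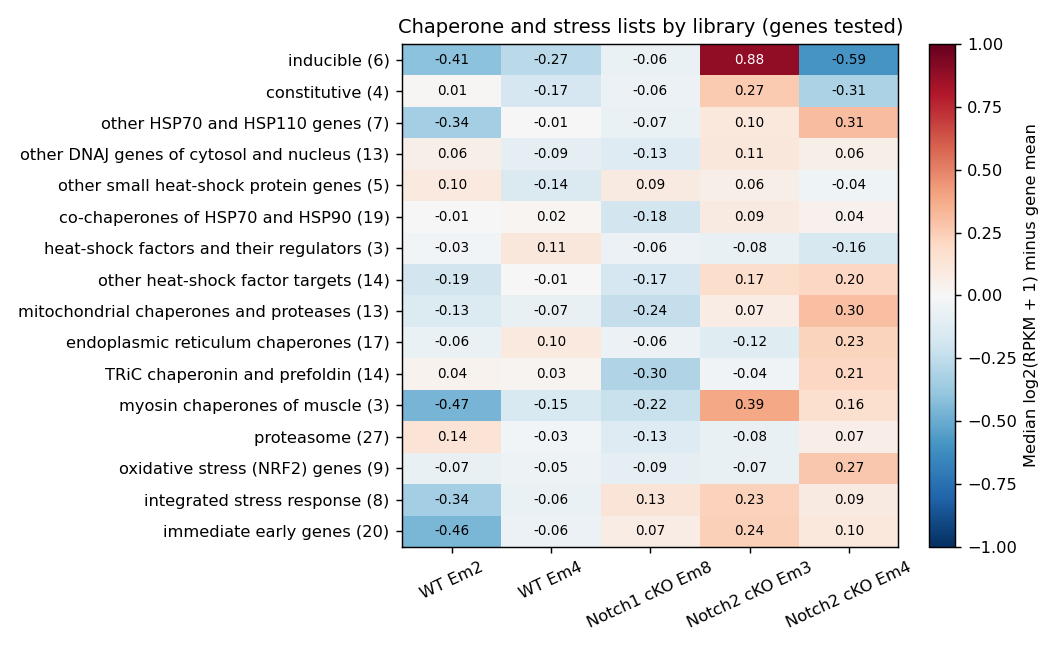
Median over the tested genes of each chaperone or stress list (rows, number tested in brackets) of log2(RPKM + 1) minus the gene's mean over the 5 libraries, by library (columns, colour and printed value). The inducible genes reach 0.88 in Notch2 cKO Em3, and the other chaperone and stress lists shown lie there between -0.12 and 0.39.

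Lists of other stress responses and of other cell types were read beside these genes. Notch2 cKO Em3 was highest for 1 of 27 proteasome genes and 1 of 9 oxidative stress genes. It was highest for 10 of 20 immediate early genes and 4 of 8 integrated stress response genes. Over all tested genes the share was 25.4% as deposited and 12.6% after median-of-ratios scaling, and these list counts are as deposited. None of these listed genes was called by limma in Notch2 cKO against WT. Summed immediate early RPKM was 2110, 2663, 2969, 3414 and 2721, and summed integrated stress response RPKM 187, 226, 275, 394 and 265, in the usual library order, so both sums were highest in Notch2 cKO Em3 and lowest in WT Em2. Junb, the most abundant immediate early gene by mean, stood at 483, 714, 685, 673 and 647 RPKM, highest in WT Em4. Egr1, an immediate early transcription factor chosen for mention after its values were seen, stood at 225.5, 266, 330, 597 and 307 RPKM, highest in Notch2 cKO Em3. Ppp1r15a, the most abundant integrated stress response gene, stood at 77.9, 90.8, 140.3, 191 and 112 RPKM, also highest there. Psmb6, a proteasome subunit, was lowest there, at 879 RPKM against 909 to 1154, as was Prdx1, a peroxidase, at 699 against 755.5 to 960.4. The part of cell handling in the heat-shock values was not tested.

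Fosb, a further immediate early gene, was the single gene of these stress and chaperone lists that passed the limma threshold, in Notch2 cKO against Notch1 cKO. It stood at 19.99, 34, 61.5, 21.6 and 19.2 RPKM and was high in Notch1 cKO Em8, with a log2 fold change of -1.55 (SE 0.34, limma adjusted p 0.00982). The call was lost without Notch2 cKO Em4 (-1.47, adjusted p 0.0736), with no filter (-1.55, 0.714) and with the length trend removed (-1.77, 0.218). Its highest library thus differed from that of Hspa1a.

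None of the 6 lists of other cell types had its highest summed level in Notch2 cKO Em3. Interstitial fibroblast markers (8 of 8 tested) summed to between 124 and 326.5 RPKM over the libraries, with 205 in Notch2 cKO Em3. Tendon and cartilage markers (7 of 8) ran from 46.5 to 146 RPKM, with 51.8 there, endothelial markers (2 of 6) from 4.23 to 7.12, with 5.40, and haematopoietic markers (3 of 6) from 11.1 to 19.1, with 12.0. Ptprc, the defining haematopoietic marker, was listed at 0 in WT Em2 and reached 0.145 RPKM, its highest, in Notch2 cKO Em3. Csf1r, Pecam1, Cdh5, Kdr and Rgs5, below the 1 RPKM filter, were also highest there, at 0.45, 0.66, 0.13, 0.29 and 0.35 RPKM. So were the fibroblast markers Pdgfra (1.85 RPKM) and Osr1 (5.25 RPKM), while the remaining measured markers of these lists were highest in other libraries. Erythroid markers (5 of 7) ran from 449 to 1749 RPKM, with 520.4 in Notch2 cKO Em3, and pericyte and smooth muscle markers (2 of 6) from 362 to 532, with 518. In Notch2 cKO Em3 the most abundant markers of these lists, Col3a1, Scx, Tek, Cd68, Hba-a2 and Acta2, had levels of 99.6, 34.2, 3.22, 7.27, 193 and 512 RPKM, and each was higher in another library. Tek and Acta2 made up most of the sums of their lists there.

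Single markers of other cell types passed the limma threshold. In Notch2 cKO against WT, the erythroid genes Hba-a1 (-1.16, SE 0.27, adjusted p 0.018), Hba-a2 (-1.34, SE 0.28, 0.00459) and Hbb-b1 (-1.11, SE 0.28, 0.0316) were lower and the mast cell gene Cpa3 (1.26, SE 0.32, 0.0336) was higher. Hba-a2 stood at 431, 478, 676, 193 and 165 RPKM and Cpa3 at 1.18, 1.33, 0.189, 2.62 and 6.995 RPKM, so Hba-a2 was low in both Notch2 cKO libraries and Cpa3 highest in Notch2 cKO Em4. These 3 erythroid calls were lost without either Notch2 cKO library, those of Hba-a1 and Hbb-b1 also without WT Em4, and that of Cpa3 without Notch2 cKO Em4, WT Em2 or WT Em4. Against Notch1 cKO, Hba-a1, Hba-a2, Hbb-b1, Hbb-bs and the fibroblast gene Dpt were lower and Cpa3 was higher, and in Notch1 cKO against WT the fibroblast gene Mfap5 was higher. The calls of Dpt and Mfap5 were lost on leaving out any WT or Notch2 cKO library, and those of Hba-a2 and Hbb-b1 without Notch2 cKO Em4. The part of these markers in the heat-shock values was not tested. In bulk samples, a change in the make-up of the sorted cells and a change in RNA per cell cannot be told apart.

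The genes most like Hspa1a and Hspa1b were taken as the 8 with the widest lead of Notch2 cKO Em3 over the other 4 libraries, over 5 libraries and with pseudogenes, numbered models and small RNA names left out. They were Snhg5, Nmrk2, Snhg17, Snhg16, Snhg15, Tmem91, Miip and Gdf15, with leads from 1.93 down to 1.03 log2 units. Nmrk2 and Tmem91 were under 1 RPKM in every other library, so they passed the 1 RPKM filter only through Notch2 cKO Em3. Snhg5, a host gene of small nucleolar RNAs, stood at 52.8, 48.8, 55.1, 213 and 39.1 RPKM, and Snhg15 at 116, 96.5, 96.1, 319 and 69.0 RPKM. Gdf15, a secreted factor of the TGF-beta family, stood at 5.52, 5.37, 10.5, 22.5 and 7.62 RPKM. The choice by lead fixes that Notch2 cKO Em3 stands above the other libraries for all 8 genes. Hspa1a and Hspa1b already had the widest leads, so the shorter leads of these genes are fixed as well. Neither is read as a result.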

How the data were processed

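Per the labels' protocols, the RNA went through the SMART-Seq v4 Ultra Low Input kit and was sequenced as paired ends. The values deposited by the authors are RPKM, in 27179 rows and 5 columns. bcl2fastq 2.20.0 and mm10 appear in the submitters' processing notes. The sources used here name no aligner, counter or annotation. Rows without a gene name (1306, between 2.19% and 3.07% of summed RPKM) were left out.

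The 10 genes, their classes, all lists and the rules for naming genes were chosen with earlier results of these data known. Named genes are the 10, the genes of each chaperone or stress list past the threshold, the most abundant gene of each list and the 8 most like Hspa1a and Hspa1b. Hsf1, Egr1, Unc45b, Bag3, Dnajb4, Ptprc and the other cell type markers highest in Notch2 cKO Em3 are named outside this rule. So are the called marker genes and the genes of the targeted loci.

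The 11543 genes averaging 1 RPKM or more were fitted with limma 3.58.1 (R 4.3.3) on log2(RPKM + 1), with a variance trend and 1 mean per group over all 5 libraries, two-sided, at an adjusted p of 0.05. A fold change on this scale understates changes of low genes. Columns carry a group but no replicate number. Whole reads were recovered from RPKM steps (95.7% of 5740 low genes had whole lengths within 0.02 bases). Voom with median-of-ratios scaling was run on these reads as an alternative chosen after seeing the data. The script was tested on simulated data. p-values measure only the spread between these libraries, which may be technical. For each gene, that spread came mostly from the trend over all tested genes (103.8 prior against 2 residual degrees of freedom).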

Additional observations from a re-analysis of the deposited data

How the results depend on the processing

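The planned voom fit with TMM factors was not run, and voom with median-of-ratios scaling, chosen after seeing the data, stands in its place. No paired analysis was possible because the columns carry no replicate number. Counts of all genes called depended on the settings. For Notch2 cKO against WT (62 genes) the count was 0 with no filter, 33 at 5 RPKM, 4 after quantile normalization, 13 with voom, 1 with the length trend removed and 13 (without WT Em2) to 287 (without WT Em4) leaving out 1 library. For Notch1 cKO against WT (8 genes) it was 15 with a pseudocount of 0.1, 0 with no filter, 22 after median-of-ratios scaling, 1 after quantile normalization, 5 with voom, 0 with the length trend removed and 1 to 5 leaving out 1 library. For Notch2 cKO against Notch1 cKO (56 genes) it was 0, 86, 13, 33 and 0 with no filter, median-of-ratios scaling, quantile normalization, voom and the length trend removed, and 35 to 67 leaving out 1 library. Median-of-ratios scaling moved the split in Notch2 cKO against WT from 41 higher and 21 lower to 41 and 40.

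Of the 10 genes, 2 were called in Notch2 cKO against WT, 0 with no filter, after quantile normalization or with the length trend removed, and 0 to 3 leaving out 1 library. Their log2 fold changes in the 3 settings without a call were 2.68, 2.59 and 2.43 for Hspa1a and 2.86, 2.77 and 2.61 for Hspa1b, against 2.68 and 2.86. The prior degrees of freedom of these 3 fits were 0.8, 14.6 and 7.1, against 103.8 in the main fit. In limma, fewer of them leave more weight on a gene's own spread. In Notch2 cKO against Notch1 cKO the count went from 0 to 1 (Hspa1b) at 5 RPKM, after median-of-ratios scaling and with voom, and 0 to 2 leaving out 1 library. Over the alternatives the limma adjusted p in Notch2 cKO against WT ran from 4.70e-28 to 0.906 for Hspa1a and from 1.63e-32 to 0.839 for Hspa1b. The lowest values come from the fit without Notch2 cKO Em4, where the library for which the genes were picked stands alone for its group. How far the weight on a gene's own spread accounts for the lost calls was not tested.

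Inducible minus constitutive was highest in Notch2 cKO Em3 in all 6 settings. The genes were picked with the level of Hspa1a and Hspa1b there known, so settings that keep this pair are not read as support. Without the pair, Notch2 cKO Em3 led by 0.39, against a range of 0.345 among the others. This is not read as support either, since the genes and classes were chosen with earlier results of these data known. With Hsp90aa1 in neither class the difference was -4.015 in WT Em2, -3.50 in WT Em4 and -3.09 in Notch1 cKO Em8. Without Hspa1a and Hspa1b it was -1.66, -1.42 and -1.31 there and -1.55 in Notch2 cKO Em4. As a log2 ratio of sums it was -2.19, -2.21 and -2.01 in those 3 libraries.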
